A study of Mus musculus with 20 samples.

Results

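The 9 genes described here are markers of the inner layers of the retina, measured in what was left of the eye after the neural retina had been peeled away. They were chosen by their symbols from the 24411 genes of the deposited table, and all 9 were present and passed the filter on low values that left 18807 genes for testing. Grm6, Pcp2, Cabp5 and Isl1 mark bipolar cells, Gad1 and Calb2 mark mainly amacrine cells, Calb1 marks horizontal cells, and Glul and Gfap mark Müller glia and astrocytes. The RNA sequenced was that of the RPE and choroid of C57BL/6 mice, in 20 samples with 5 in each of 4 groups. After weaning, wild-type (WT) mice and Stra6-/- mice, which lack the retinol transporter STRA6 in all tissues, were fed for 12 weeks with either a vitamin A sufficient (VAS, 4 IU per g) or a vitamin A deficient (VAD, 0 IU per g) diet. All animals had been raised on chow until then. The WT mice were bought from the Jackson Laboratory and the knockouts were bred in house, so a difference between colonies cannot be told apart from the genotype. By the study's methods each sample pooled 2 eyecups with 5 mice per group, and the retina had been removed after treatment with dispase. Whether the inner retina transcripts in these samples came from retina that stayed on the eyecup or from other cells that express the same genes was not tested. In such bulk samples fewer cells of a type and less RNA per cell cannot be told apart.

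In the retina, photoreceptors pass their signal to bipolar cells, horizontal cells adjust the signal at this first synapse, amacrine cells adjust it at the next one, and ganglion cells send it to the brain. ON bipolar cells read the glutamate of photoreceptors through the receptor mGluR6, the product of Grm6. Müller glia span the retina, take up glutamate and turn it into glutamine with glutamine synthetase, the product of Glul, and they raise the filament protein GFAP when the retina is injured. Several of these genes are also active elsewhere: Glul is used by the RPE and many other tissues, Gfap by astrocytes of the optic nerve and by non-myelinating Schwann cells, and Calb2 and Isl1 by other neurons.

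Promoter sequences are shown for 3 bipolar cell genes. Of these, Grm6 and Pcp2 were called lower in VAS Stra6-/- than in VAS WT, and Cabp5 did not pass in the same limma fit. Cabp5 was lower as well, by 0.51 on the log2 scale, and passed without replicates 2 and 4 of VAD WT (adjusted p = 0.0138). The 3 genes are therefore no contrast between a gene that fell and one that did not. RefSeq windows were found for 7 of the 9 genes, each covering the 250 bases before the RefSeq start in GRCm38.p6. They are written 5′ to 3′ on the strand of the gene, and capitals mark TAATCC, the core that retinal homeodomain factors of the OTX2 and CRX type bind. Grm6 is on chr11:50850435-50850684, plus strand, Pcp2 on chr8:3625548-3625797, minus strand, and Cabp5 on chr7:13397905-13398154, plus strand.
Grm6: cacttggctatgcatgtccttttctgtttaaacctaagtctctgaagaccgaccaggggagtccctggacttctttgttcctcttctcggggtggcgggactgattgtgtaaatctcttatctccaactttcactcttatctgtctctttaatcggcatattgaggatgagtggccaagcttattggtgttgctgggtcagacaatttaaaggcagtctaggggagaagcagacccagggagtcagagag
Pcp2: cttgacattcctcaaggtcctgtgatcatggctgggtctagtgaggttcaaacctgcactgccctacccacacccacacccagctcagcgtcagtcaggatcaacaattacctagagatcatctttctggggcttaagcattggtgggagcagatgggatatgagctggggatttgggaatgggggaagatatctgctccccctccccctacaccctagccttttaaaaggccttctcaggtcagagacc
Cabp5: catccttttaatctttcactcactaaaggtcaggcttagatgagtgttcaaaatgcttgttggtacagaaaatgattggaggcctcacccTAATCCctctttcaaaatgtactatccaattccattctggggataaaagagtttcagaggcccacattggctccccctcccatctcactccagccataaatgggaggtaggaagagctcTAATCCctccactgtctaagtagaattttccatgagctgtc
The search for TAATCC covered both strands, as did that for TAATTA, a core bound by other homeodomain factors, and the 2 motifs do not overlap in any of these windows. Of the 7 windows, 3 held TAATCC: Cabp5 with 2 matches, starting 160 and 41 bases before the start, Isl1 with 1 match 177 bases before it, and Gad1 with 1 match 203 bases before it. None of the 7 held TAATTA. Of all 32851 promoter windows of the same length, 6.25% held TAATCC and 4.84% held TAATTA.

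Several facts of the whole series bear on these genes. Depth was similar, at 13331903 to 21878614 reads per library with a median of 17785927. Stra6 itself had a normalized value of 2414 to 2742 in VAS WT, 564 to 694 in VAS Stra6-/- and 1973 to 2393 in the libraries labelled VAD Stra6-/-. Stra6 is expressed in the RPE, and RPE genes were also higher in this last group, as given below. Its mean there was 3.44 times that in VAS Stra6-/-, and the mean of the RPE gene Rpe65 was 7.61 times. Whether the level of Stra6 goes against the label was not tested. In VAD WT Stra6 was at 1340.1 and 1529 in replicates 2 and 4 and at 693, 697 and 669 in replicates 1, 3 and 5. The latter reach into the range of VAS Stra6-/-, so the value of Stra6 alone does not tell these 3 libraries from the knockout. They also had little RPE transcript, with Rpe65 at 1503, 1545 and 1107, against 5598 to 5979.6 in VAS Stra6-/-. VAD WT stands here for what the labels say. Replicates 2 and 4 of VAD WT stood apart from replicates 1, 3 and 5. The summed level of 13 rod genes was 327297 to 327564 in them and 128686 to 133408 in the other 3, beside 148082 to 169045 in VAS WT, 165551 to 177771 in VAS Stra6-/- and 96507 to 110196 in the libraries labelled VAD Stra6-/-. Rpe65, an RPE enzyme, was at 42395 to 45414 in this last group and at 3908 to 4595 in VAS WT, 5598 to 5979.6 in VAS Stra6-/- and 1107 to 3945 in VAD WT. The summed level of 8 RPE genes was 479287 to 523760.0 there, against 107897 to 124159 in VAS WT, 111070.0 to 117175 in VAS Stra6-/- and 29847 to 54185 in VAD WT, so the labelled tissue was present in every library. The summed level of 6 keratins of surface epithelium was 22527 to 30436 in the libraries labelled VAD Stra6-/- and 324257 to 869025 in VAD WT. The sex of the animals was not given in the sources used here. Xist, expressed from the inactive X chromosome, was at 7.69 to 38.4 in VAS WT, 15320.2 to 18052 in VAS Stra6-/- and 3569.8 to 4279.6 in the libraries labelled VAD Stra6-/-, and in VAD WT it was at 10912 and 11767 in replicates 2 and 4 and 174 to 234 in the other 3. Ddx3y, a gene of the Y chromosome, was at 981 to 1193 in VAS WT and 0 to 1.02 in VAS Stra6-/-. Between the VAS groups, the genotype thus cannot be told apart from the sex that these 2 genes mark. In VAD WT Ddx3y was at 75.2 and 80.5 in replicates 2 and 4 and at 1041 to 1133 in the other 3. All 5 libraries labelled VAD Stra6-/- held Ddx3y at 741 to 969.7 beside Xist, so whether each of them came from 1 mouse is in doubt. Levels of these 2 genes also differed between or within the groups of the other comparisons and of the interaction. Sex is thus mixed with diet or genotype in them as well, and its part was not tested. The number n counts libraries. The parts of these differences in the results below were not tested, but values of the 9 genes are also given without VAD WT replicates 2 and 4 where that changes a call, a direction or the size by more than 1.5 times.

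Levels of different genes were compared per kb of exon. In VAS WT, Glul had by far the highest level, 6689.5 ± 213 normalized value per kb (SD, n = 5), followed by Calb2 at 992 ± 12.0 and Gfap at 546 ± 48.7. Pcp2 at 298 ± 54.5 and Grm6 at 153 ± 13.2 came next, and their ranges did not overlap. Gad1 at 86.3 ± 17.5, Cabp5 at 74.0 ± 6.58 and Isl1 at 65.9 ± 13.7 were neighbours whose libraries overlapped. The lowest was Calb1 at 48.3 ± 9.87, whose libraries overlapped with those of Isl1. The order of the means was the same in VAD WT and VAS Stra6-/-. In the libraries labelled VAD Stra6-/- Gfap at 556 ± 44.0 stood before Calb2 at 476 ± 59.2, with overlapping ranges, and Grm6 at 38.7 ± 4.32 stood behind Gad1 at 52.6 ± 8.50 and Cabp5 at 50.0 ± 14.2. Of the horizontal cell genes Calb1 had the highest values, and the transcription factors of that cell type were low. Over the 20 libraries Lhx1 ran from 0 to 15.4, Onecut1 from 0 to 5.14 and Onecut2 from 0 to 31.2. Whether Calb1 came from horizontal cells in these samples was not tested.

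**Figure D1:**
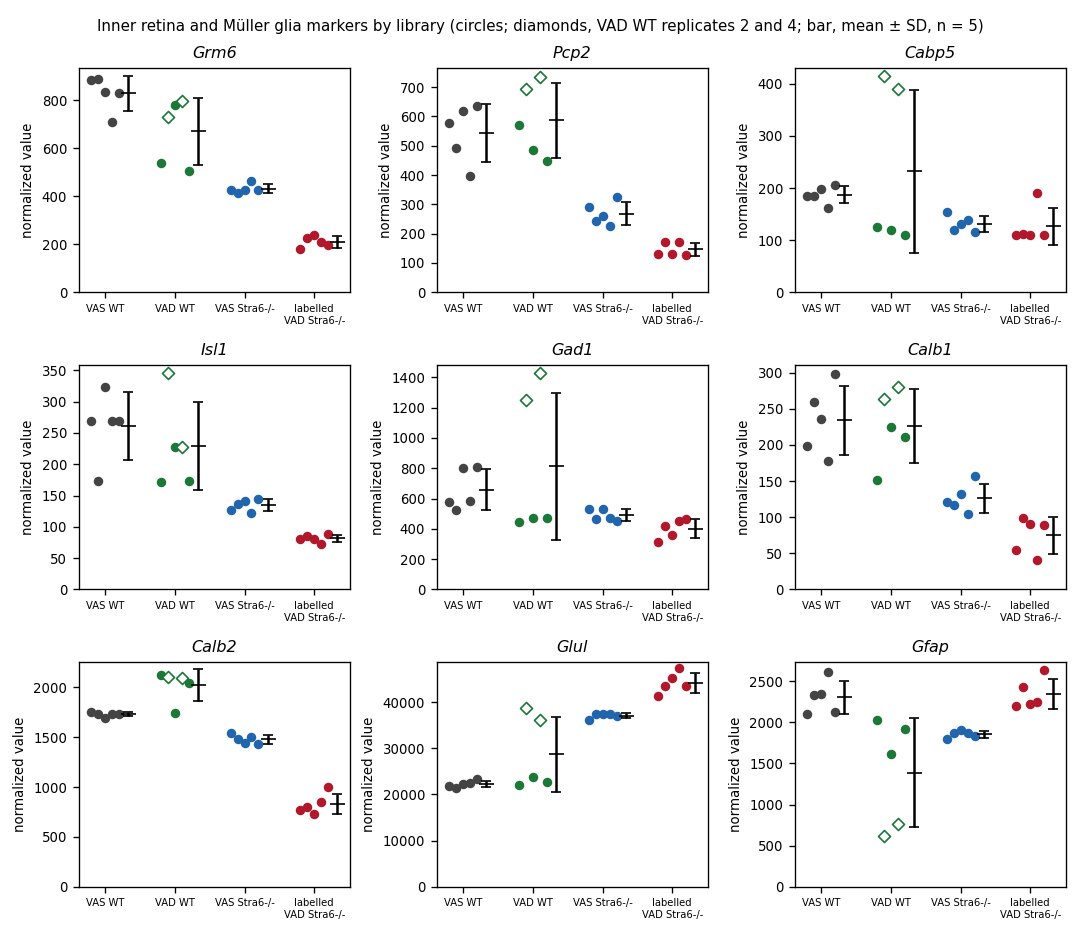
Normalized value (counts divided by a size factor per library, linear axis from 0) of each of the 9 genes in all 20 libraries, with 5 libraries per group. Circles are libraries, open diamonds are VAD WT replicates 2 and 4, and the bar is the group mean ± SD; Grm6 fell from 710.2 to 887 in VAS WT to 179 to 239.5 in the libraries labelled VAD Stra6-/-, while Glul ran from 21320.2 to 23252 to 41272 to 47352.

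Among the bipolar cell genes, Grm6 lies on chromosome 11 from 50850685 to 50866208 of GRCm38, on the plus strand. Its normalized values, from replicate 1 to 5 as in all such lists here, were 884, 887, 833, 710.2 and 829 in VAS WT and 428, 414, 427, 464 and 424 in VAS Stra6-/-. They were 539, 729, 782, 795 and 504 in VAD WT and 179, 225, 239.5, 208 and 197 in the libraries labelled VAD Stra6-/-. All 5 libraries labelled VAD Stra6-/- lay below the VAS Stra6-/- libraries, and these lay below all WT libraries on either diet, while the WT groups overlapped. The exons of Grm6 overlap the antisense gene Gm12660, which has no row in the table, and the strand setting of the counting was not given in the sources used here.

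Pcp2, on chromosome 8 from 3623371 to 3625545 on the minus strand, encodes a modulator of G protein signalling found in ON bipolar cells and in Purkinje cells of the cerebellum. Its values were 576, 493, 619, 396 and 636 in VAS WT and 289, 243, 260.3, 225 and 324 in VAS Stra6-/-. They were 571, 695, 484, 736 and 447 in VAD WT and 132, 170.5, 130.0, 170.3 and 127 in the libraries labelled VAD Stra6-/-. The groups were ordered as for Grm6, without overlap between the genotypes on the same diet. Its exons overlap those of Pet100 on the opposite strand, so reads of the pair cannot be told apart without strand.

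Cabp5, on chromosome 7 from 13398132 to 13408887 on the plus strand, encodes a calcium-binding protein of rod bipolar and some cone bipolar cells. It was at 185, 185, 198, 162 and 205 in VAS WT and at 153, 119.6, 131, 138 and 115 in VAS Stra6-/-, without overlap. In VAD WT it was at 125, 414, 119, 390.3 and 110.5, so that replicates 2 and 4 were more than 3 times as high as the other 3. The libraries labelled VAD Stra6-/- had values of 109.8, 111, 111, 190.5 and 109.9, among which replicate 4 stood out.

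Isl1, on chromosome 13 from 116298281 to 116309689 on the minus strand, encodes a transcription factor of ON bipolar cells and of some amacrine and ganglion cells. It ranged over 174 to 324 in VAS WT, 122 to 144 in VAS Stra6-/-, 171 to 345 in VAD WT and 72.9 to 88.8 in the libraries labelled VAD Stra6-/-. As for Grm6, the last group lay below VAS Stra6-/-, which lay below both WT groups.

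Gad1, on chromosome 2 from 70553072 to 70602014 on the plus strand, encodes glutamate decarboxylase, which makes the transmitter GABA in amacrine cells. It was at 578, 528, 800.5, 581 and 807 in VAS WT and 528, 465, 533, 475 and 452 in VAS Stra6-/-. Values in VAD WT were 442, 1253, 471, 1428 and 472, and those labelled VAD Stra6-/- were 314, 416, 358, 455 and 468. VAD WT replicates 2 and 4 were the highest of all 20 libraries, and the genotypes overlapped on both diets.

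Calb2, on chromosome 8 from 110137502 to 110168210 on the minus strand, encodes calretinin, a calcium buffer of amacrine and ganglion cells. It was at 1748, 1738, 1693, 1731 and 1733 in VAS WT and 1543, 1486, 1441, 1499 and 1428 in VAS Stra6-/-, without overlap. In VAD WT it was at 2128, 2107, 1747, 2094 and 2043, with replicate 3 below the other 4, and in the libraries labelled VAD Stra6-/- it was at 774, 796, 734, 849 and 999. Replicates 2 and 4 of VAD WT did not stand apart for this gene. Calb1, on chromosome 4 from 15881264 to 15908064 on the plus strand, encodes calbindin, a calcium buffer of horizontal cells. It ranged over 178 to 298 in VAS WT, 151 to 281 in VAD WT, 104 to 156 in VAS Stra6-/- and 40.4 to 98.3 in the libraries labelled VAD Stra6-/-, and the last 2 groups overlapped neither with each other nor with the WT group on the same diet.

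Of the glial genes, Glul lies on chromosome 1 from 153899944 to 153909723 on the plus strand. It was at 21923, 21320.2, 22228, 22424 and 23252 in VAS WT and 36139, 37437, 37411, 37492 and 36997 in VAS Stra6-/-. Values in VAD WT were 22138, 38735, 23666, 36057 and 22645, and the libraries labelled VAD Stra6-/- had 41272, 43486, 45177, 47352 and 43417. These last 5 libraries were the highest of all 20, and VAD WT replicates 2 and 4 lay near the values of VAS Stra6-/- while the other 3 lay near those of VAS WT. Its exons overlap Teddm2 on the opposite strand and the microRNA gene Mir8114.

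Gfap, on chromosome 11 from 102887336 to 102900912 on the minus strand, was at 2102, 2336, 2347, 2608 and 2123 in VAS WT and 1801, 1870.0, 1905, 1873 and 1831 in VAS Stra6-/-. It was at 2028, 613, 1615, 769 and 1924 in VAD WT and 2197, 2430.0, 2220.2, 2245 and 2634 in the libraries labelled VAD Stra6-/-. VAD WT replicates 2 and 4 were the lowest of all 20 libraries for this gene, where for Glul, Gad1 and Cabp5 they were the highest of their group. The summed level of 8 genes of myelin and Schwann cells, all of them above 0, was 9559 and 9923 in these replicates, 19066 to 20834 in the other 3, 12369 to 13405 in VAS WT, 8513 to 8904 in VAS Stra6-/- and 12549.8 to 13616 in the libraries labelled VAD Stra6-/-, and its part in the level of Gfap was not tested.

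The loss of STRA6 on the sufficient diet was examined first. All 7 inner retina neuron genes had a lower mean in VAS Stra6-/- than in VAS WT, and 5 of them were called, whereas Glul was called higher. In limma on log2(value + 1) over all 20 libraries with Benjamini-Hochberg adjustment, 6 of the 9 genes passed an adjusted p of 0.05, 5 lower and 1 higher, beside 26.6% of all genes tested, 10.8% lower and 15.9% higher. Pcp2 fell by the most, with a log2 fold change of -1.01 (SE 0.16, adjusted p = 6.57e-05), followed by Grm6 with -0.94 (SE 0.12, adjusted p = 5.78e-06), Isl1 with -0.93 (SE 0.18, adjusted p = 0.000658) and Calb1 with -0.88 (SE 0.23, adjusted p = 0.00805). On the linear scale the mean of Grm6 was 52.1% and that of Pcp2 49.3% of that in VAS WT. Calb2 fell less, by 0.23 on the log2 scale (SE 0.07, adjusted p = 0.0271), and this call was lost when VAS Stra6-/- replicate 3 or 5 was left out (adjusted p = 0.0563 and 0.0604). Glul rose by 0.74 (SE 0.14, adjusted p = 0.0003). The log2 fold changes of Cabp5, -0.51 (SE 0.31, adjusted p = 0.253), Gad1, -0.41 (SE 0.26, adjusted p = 0.29), and Gfap, -0.31 (SE 0.23, adjusted p = 0.371), did not pass. Without VAD WT replicates 2 and 4, which enter this comparison only through the shared estimate of spread, all 3 passed (adjusted p = 0.0138, 0.0114 and 0.000833), which made 9 of 9 beside 40% of all genes. The groups did not overlap for 8 of the 9 genes, 7 below and 1 above, beside 32.5% of all genes, 13.2% below and 19.3% above. The median log2 fold change over the 9 genes was -0.51, against 0.02 over all genes.

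The diets were next compared in WT mice. Of the 9, 1 was called, Gfap, beside 8.78% of all genes and 5.5% called lower. The count is near the share of all genes and says little of the 9. Gfap fell by 0.88 on the log2 scale (SE 0.23, adjusted p = 0.0185). The call was lost without VAS WT replicate 4 (adjusted p = 0.0518), and without VAD WT replicates 2 and 4 the log2 fold change was still called but smaller, at -0.31 (SE 0.08, adjusted p = 0.00269). In that smaller fit 4 of the 9 genes were called, all lower, beside 37.9% of all genes and 20.3% called lower. They were Gfap, Grm6 with a log2 fold change of -0.47 (SE 0.12, adjusted p = 0.00449), Cabp5 with -0.65 (SE 0.18, adjusted p = 0.00735) and Gad1 with -0.49 (SE 0.14, adjusted p = 0.00911). With all libraries, the values of Cabp5 and Gad1 had the opposite sign, 0.05 (SE 0.31, adjusted p = 0.958) and 0.12 (SE 0.26, adjusted p = 0.842). Pcp2 at 0.10 (SE 0.16, adjusted p = 0.77), Isl1 at -0.21 (SE 0.18, adjusted p = 0.557) and Calb1 at -0.06 (SE 0.23, adjusted p = 0.93) passed in neither fit, and in the smaller fit they were at -0.11 (SE 0.16, adjusted p = 0.644), -0.44 (SE 0.18, adjusted p = 0.0555) and -0.25 (SE 0.26, adjusted p = 0.485). Glul, at 0.32 (SE 0.14, adjusted p = 0.158) with all libraries, was at 0.04 (SE 0.04, adjusted p = 0.544) in the smaller fit. Calb2, at 0.22 (SE 0.07, adjusted p = 0.0644), also passed in neither, although Calb2 passed without VAD WT replicate 3 and Grm6 without VAD WT replicate 4 (adjusted p = 0.0183 and 0.0330). Gfap was the 1 gene without overlap between the groups, beside 6.34% of all genes and 4.21% with the deficient group below.

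**Figure D2:**
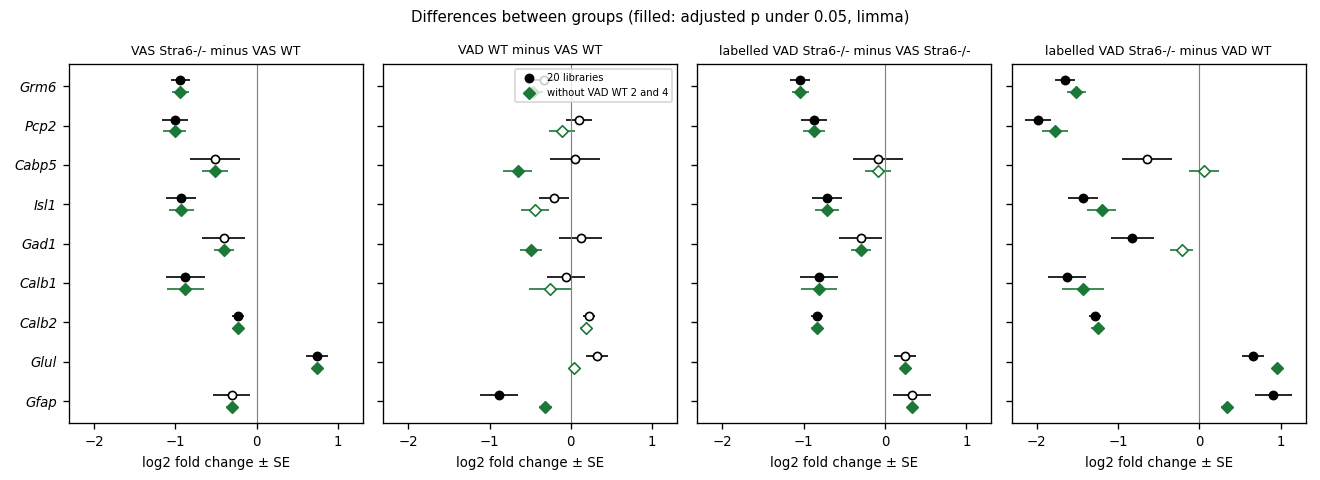
Log2 fold change ± SE of the 9 genes (horizontal axis) in each comparison of 2 groups, fitted with limma to all 20 libraries (black circles) and without VAD WT replicates 2 and 4 (green diamonds). Filled symbols have an adjusted p under 0.05; Grm6 is at -0.94, -0.33, -1.04 and -1.65 from left to right with all libraries, and in the comparisons without VAD WT the values are the same in both fits and the SEs differ.

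The diet was then compared within the knockout label. Of the 9 genes 5 were called between VAS Stra6-/- and the libraries labelled VAD Stra6-/-, all lower in the latter, beside 53.2% of all genes called and 28.8% called lower. Grm6 fell again, with a log2 fold change of -1.04 (SE 0.12, adjusted p = 2.07e-07), as did Pcp2 with -0.88 (SE 0.16, adjusted p = 7.97e-05), Calb2 with -0.84 (SE 0.07, adjusted p = 3.02e-09), Calb1 with -0.81 (SE 0.23, adjusted p = 0.00587) and Isl1 with -0.71 (SE 0.18, adjusted p = 0.00233). The mean of Grm6 was 48.6% and that of Calb2 56.1% of that in VAS Stra6-/-. Cabp5, at -0.09 (SE 0.31, adjusted p = 0.844), and Gad1, at -0.30 (SE 0.26, adjusted p = 0.364), did not pass. Both glial genes lay above every VAS Stra6-/- library without passing, Glul at 0.25 (SE 0.14, adjusted p = 0.13) and Gfap at 0.33 (SE 0.23, adjusted p = 0.241). Without VAD WT replicates 2 and 4 in the fit, Gad1, Glul and Gfap passed as well (adjusted p = 0.0403, 8.39e-06 and 0.000171), which made 8 of 9 beside 60.7% of all genes. The groups did not overlap for 7 genes, 5 below and 2 above, beside 51.3% of all genes, 26.8% below and 24.5% above. The share of all genes called was so high in this comparison and the next that the counts of the 9 genes say little on their own.

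Between the genotype labels on the deficient diet, 8 of the 9 genes were called, 6 lower and 2 higher with the label VAD Stra6-/-, beside 55.9% of all genes, 29.6% lower and 26.2% higher. The log2 fold change was -1.99 (SE 0.16, adjusted p = 8.14e-10) for Pcp2, -1.65 (SE 0.12, adjusted p = 1.77e-10) for Grm6, -1.63 (SE 0.23, adjusted p = 4.36e-06) for Calb1, -1.43 (SE 0.18, adjusted p = 9.01e-07) for Isl1 and -1.29 (SE 0.07, adjusted p = 3.08e-12) for Calb2. Glul rose by 0.67 (SE 0.14, adjusted p = 0.000248) and Gfap by 0.91 (SE 0.23, adjusted p = 0.00202). Gad1 was called at -0.83 (SE 0.26, adjusted p = 0.0111), but without VAD WT replicates 2 and 4 it was at -0.21 (SE 0.14, adjusted p = 0.198) and no longer passed. Cabp5 did not pass at -0.64 (SE 0.31, adjusted p = 0.0841), but did on recovered reads in edgeR, at -0.86 (adjusted p = 0.0385), and DESeq2, at -0.84 (adjusted p = 0.0287). In limma it passed when VAD WT replicate 1, 3 or 5 or replicate 4 labelled VAD Stra6-/- was left out (adjusted p from 0.0269 to 0.0423), and without VAD WT replicates 2 and 4 it was at 0.06 (SE 0.18, adjusted p = 0.81). In that fit Glul rose by 0.95 and Gfap by 0.34, so that the difference of Gfap was smaller by more than a factor of 1.5 on the log2 scale. The groups did not overlap for 7 genes, 5 below and 2 above, beside 37.4% of all genes, 19% below and 18.3% above. The median over the 9 genes was -1.29, against -0.05 over all genes. None of the 9 reached a log2 fold change beyond 2 in any comparison, beside 1.1%, 0.409%, 9.08% and 10.4% of all genes in the 4 comparisons in the order given here. The same held for the interaction that follows, beside 10.4% of all genes.

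Whether the diet acted differently in the genotypes was tested as an interaction, the diet difference in Stra6-/- minus that in WT. It passed for 4 of the 9 genes, 3 negative and 1 positive, beside 44.2% of all genes, 24.8% negative and 19.5% positive. It was lower for Calb2 at -1.06 (SE 0.10, adjusted p = 3.09e-08), Pcp2 at -0.98 (SE 0.23, adjusted p = 0.00124) and Grm6 at -0.72 (SE 0.17, adjusted p = 0.00166), and higher for Gfap at 1.22 (SE 0.33, adjusted p = 0.00438). Without VAD WT replicates 2 and 4 the value of Gfap was 0.65 (SE 0.10, adjusted p = 1.3e-05), and Glul, at -0.07 (SE 0.19, adjusted p = 0.79) with all libraries, passed at 0.21 (SE 0.06, adjusted p = 0.00413). Isl1 at -0.50 (SE 0.26, adjusted p = 0.125), Calb1 at -0.76 (SE 0.33, adjusted p = 0.0713), Gad1 at -0.42 (SE 0.37, adjusted p = 0.39) and Cabp5 at -0.14 (SE 0.44, adjusted p = 0.831) did not pass, although Calb1 did without VAD WT replicate 1 or replicate 2 labelled VAD Stra6-/- (adjusted p = 0.0311 and 0.0404). In the fit without VAD WT replicates 2 and 4 these 4 were at -0.28 (SE 0.23, adjusted p = 0.338), -0.56 (SE 0.35, adjusted p = 0.185), 0.19 (SE 0.19, adjusted p = 0.412) and 0.57 (SE 0.24, adjusted p = 0.0528). The libraries labelled VAD Stra6-/- had Stra6 at 2163 ± 154 and Rpe65 at 44337 ± 1173 (SD, n = 5). VAS Stra6-/- had Stra6 at 629 ± 49.8 and Rpe65 at 5824 ± 144. The diet difference in Stra6-/- rests on the label of the former, which was not tested.

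Levels of rod genes differed between libraries, so the 9 genes were also set against rods, the most numerous retinal cells. The mean log2(value + 1) of 13 rod genes was, as mean ± SD over 5 libraries, 12.69 ± 0.083 for VAS WT, 12.60 ± 0.026 for VAS Stra6-/- and 12.05 ± 0.077 for the libraries labelled VAD Stra6-/-. Replicates 2 and 4 of VAD WT stood at 13.57 and 13.54, and the other 3 at 12.42 to 12.48. Subtracting this mean from each library moves all genes of a comparison by the same amount, 0.10 upwards between VAS Stra6-/- and VAS WT, and changes the spread between libraries. Of the 9 genes 5 passed in that comparison, 4 lower and 1 higher, beside 12.3% of all genes, 1.78% lower and 10.5% higher. The relative log2 difference was -0.84 (SE 0.17, adjusted p = 0.00217) for Grm6, -0.91 (SE 0.17, adjusted p = 0.000718) for Pcp2, -0.83 (SE 0.20, adjusted p = 0.00633) for Isl1 and 0.84 (SE 0.17, adjusted p = 0.00159) for Glul. Calb1, at -0.78 (SE 0.25, adjusted p = 0.0478), lost its call whenever any 1 of the 10 libraries of the 2 groups was left out (adjusted p from 0.0530 to 0.123). Calb2 was at -0.13 (SE 0.19, adjusted p = 0.752) and no longer passed. In the fit without VAD WT replicates 2 and 4, Cabp5 at -0.41 (SE 0.16, adjusted p = 0.0494) and Gad1 at -0.31 (SE 0.11, adjusted p = 0.0248) passed as well, 7 of 9 beside 37.5% of all genes. Between VAD WT and VAS WT 0 of the 9 passed in limma, with 2 at an unadjusted p under 0.05, beside 6.43% of all genes; edgeR and DESeq2 were not run on this scale. Gfap passed without VAD WT replicate 1 or 5 (adjusted p from 0.0334 to 0.0382) and Grm6 without VAD WT replicate 3 (adjusted p = 0.00656). Without both replicates that stood apart, Calb2 at 0.44 (SE 0.09, adjusted p = 0.000278) and Glul at 0.29 (SE 0.07, adjusted p = 0.00208) passed, 2 of 9 beside 43.2% of all genes, and Gfap, at -1.08 (SE 0.40, adjusted p = 0.137) with all libraries, was at -0.06 (SE 0.10, adjusted p = 0.67). In these 2 fits Grm6 was at -0.52 (SE 0.17, adjusted p = 0.0826) and -0.21 (SE 0.12, adjusted p = 0.165), Isl1 at -0.40 (SE 0.20, adjusted p = 0.291) and -0.18 (SE 0.19, adjusted p = 0.462), Cabp5 at -0.14 (SE 0.19, adjusted p = 0.806) and -0.40 (SE 0.19, adjusted p = 0.0897), Gad1 at -0.07 (SE 0.14, adjusted p = 0.899) and -0.24 (SE 0.12, adjusted p = 0.129), Pcp2 at -0.09 (SE 0.17, adjusted p = 0.878) and 0.15 (SE 0.14, adjusted p = 0.429), and Calb1 at -0.25 (SE 0.25, adjusted p = 0.716) and 0.00 (SE 0.26, adjusted p = 0.998).

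Against rods, the libraries labelled VAD Stra6-/- differed from VAS Stra6-/- in 2 of the 9 genes, 1 in each direction, beside 49.8% of all genes, 11.8% lower and 38% higher. Grm6 was lower, at -0.50 (SE 0.17, adjusted p = 0.0204), and Glul higher, at 0.79 (SE 0.17, adjusted p = 0.000471). The call of Grm6 was lost without replicate 1 of the libraries labelled VAD Stra6-/- (adjusted p = 0.0502). Pcp2 at -0.33 (SE 0.17, adjusted p = 0.103), Calb2 at -0.30 (SE 0.19, adjusted p = 0.199), Calb1 at -0.27 (SE 0.25, adjusted p = 0.4) and Isl1 at -0.17 (SE 0.20, adjusted p = 0.496) did not pass, while Cabp5 at 0.46 (SE 0.19, adjusted p = 0.0545), Gad1 at 0.24 (SE 0.14, adjusted p = 0.172) and Gfap at 0.88 (SE 0.40, adjusted p = 0.078) had positive values that did not pass, of which that of Cabp5 passed without VAS Stra6-/- replicate 1 or replicate 2 labelled VAD Stra6-/- (adjusted p from 0.0481 to 0.0494). Without VAD WT replicates 2 and 4 in the fit 7 of the 9 were called, beside 65.2% of all genes, with Pcp2, Cabp5, Gad1, Calb2 and Gfap added (adjusted p = 0.0189, 0.0164, 0.048, 0.00143 and 1.06e-09). Against VAD WT, 7 genes passed, 5 lower and 2 higher, beside 58.5% of all genes, 8.15% lower and 50.4% higher. Lower were Pcp2 at -1.15 (SE 0.17, adjusted p = 4.17e-06), Grm6 at -0.82 (SE 0.17, adjusted p = 0.000346), Calb1 at -0.80 (SE 0.25, adjusted p = 0.00979), Isl1 at -0.60 (SE 0.20, adjusted p = 0.0121) and Calb2 at -0.46 (SE 0.19, adjusted p = 0.0414), and the call of Calb2 was lost when any 1 of 7 libraries was left out, VAD WT replicates 1, 3 and 5 and replicates 1 to 4 labelled VAD Stra6-/- (adjusted p from 0.0702 to 0.127). Higher were Glul at 1.50 (SE 0.17, adjusted p = 1.13e-07) and Gfap at 1.74 (SE 0.40, adjusted p = 0.000875), and Gad1 stood at 0.00 (SE 0.14, adjusted p = 0.983). In the fit without replicates 2 and 4 of VAD WT the relative difference of Gfap was 0.73 (SE 0.10, adjusted p = 3.42e-07) and that of Calb2 -0.86 (SE 0.09, adjusted p = 4.18e-09), Gad1 stood at 0.17 (SE 0.12, adjusted p = 0.23), and Cabp5, at 0.19 (SE 0.19, adjusted p = 0.42) with all libraries, passed at 0.44 (SE 0.19, adjusted p = 0.041), which made 8 of 9 beside 64.7% of all genes. With 9 cone genes as the reference instead, all genes moved up by 1.90, 1.70 and 3.49 in the comparisons other than VAD WT against VAS WT, in which the mean of the cone genes was lower by these amounts. All 9 genes were then called higher, beside 93.2%, 77.2% and 94.6% of all genes, so these counts say nothing particular of the 9.

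**Figure D3:**
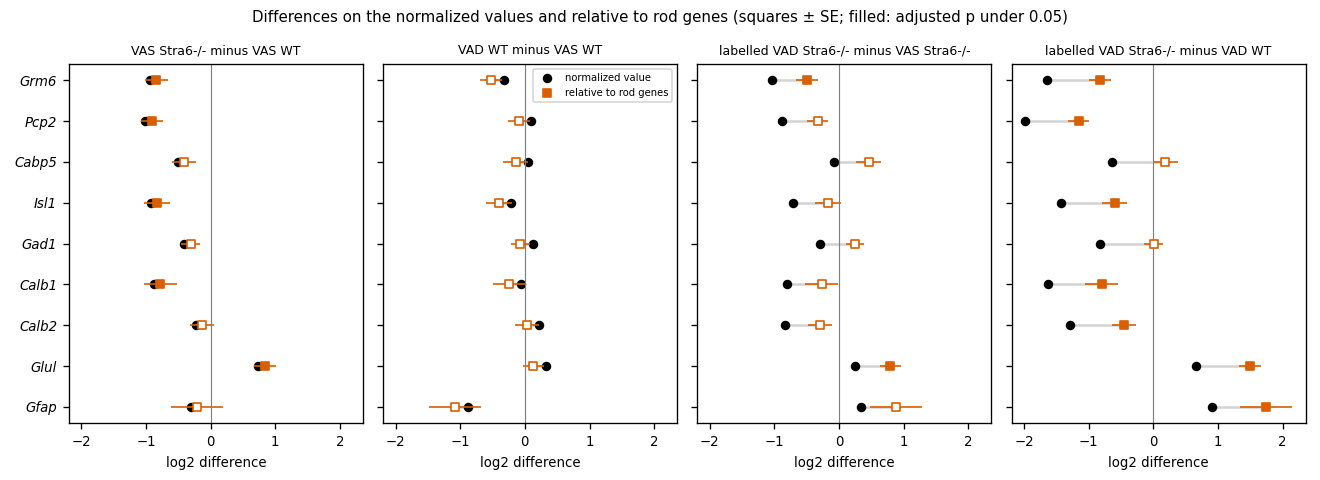
Log2 difference (horizontal axis) of the 9 genes in each comparison of 2 groups, on the normalized values (black circles) and after subtracting the mean log2(value + 1) of 13 rod genes from each library (orange squares ± SE, filled where the adjusted p was under 0.05 in limma). In the leftmost panel the symbols of Grm6 lie close together, at -0.94 and -0.84, whereas in the rightmost they lie apart, at -1.65 and -0.82.

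The wider lists of inner retina genes, which include the 9, showed how far the pattern held. Of 14 bipolar genes, 6 were called in VAS Stra6-/- against VAS WT, all of them lower, with a median log2 fold change of -0.58 beside 0.02 over all genes, of which 26.6% were called. The largest fall was that of Gng13, a G protein subunit of ON bipolar cells, at -1.26 (SE 0.18, adjusted p = 2.24e-05). In the libraries labelled VAD Stra6-/- against VAS Stra6-/-, 6 were lower and 3 higher, with a median of -0.06 beside -0.07 over all genes, of which 53.2% were called, and against VAD WT 5 were lower and 2 higher, beside 55.9% of all genes. The shares in these 2 comparisons are near those of all genes. Gpr179, which anchors the mGluR6 cascade in ON bipolar cells, was at -2.66 (SE 0.11, adjusted p = 1.79e-14) against VAD WT. Grik1, a kainate receptor of OFF bipolar cells, went the other way at 2.60 (SE 0.32, adjusted p = 5.51e-07). Between VAD WT and VAS WT 2 were lower and 1 higher, beside 8.78% of all genes called and 5.5% called lower. Among them was Lrit3, a leucine-rich protein of the synapse between photoreceptors and bipolar cells, at -1.76 (SE 0.38, adjusted p = 0.00401). Its values spread from 14.3 to 80.5 within VAD WT, against 106 to 149 in VAS WT.

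Of 11 amacrine genes 3 were called, all lower, in VAS Stra6-/- against VAS WT, with a median of -0.17, beside 26.6% of all genes called and 10.8% called lower. Tfap2b, a transcription factor of amacrine cells, was at -0.46 (SE 0.12, adjusted p = 0.00598). In the libraries labelled VAD Stra6-/-, 6 were lower and 1 higher against VAS Stra6-/-, with a median of -0.84, and 7 were lower and 1 higher against VAD WT, beside the 53.2% and 55.9% of all genes given above, 28.8% and 29.6% lower. Tfap2a, which is also a factor of surface epithelium, had the largest fall, -2.73 (SE 0.19, adjusted p = 7.95e-11) against VAS Stra6-/-, beside the keratin sums given above, whose part was not tested. Of 10 ganglion cell genes 0 were called by limma, edgeR or DESeq2 in VAS Stra6-/- against VAS WT, with 2, 1 and 1 at an unadjusted p under 0.05, and 6 were lower in the libraries labelled VAD Stra6-/- against VAS Stra6-/-, among them Pou4f2 at -1.64 (SE 0.49, adjusted p = 0.00712). Against VAD WT 7 were lower, and Nefm, a neurofilament subunit, was at -1.55 (SE 0.15, adjusted p = 1.77e-08). Of 4 horizontal genes in the table Calb1 was the 1 gene called in any of these comparisons.

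The 12 Müller glia and astrocyte genes split in VAS Stra6-/- against VAS WT, with 2 higher and 3 lower and a median of -0.13. Higher were Glul and Dkk3, the latter at 0.29 (SE 0.10, adjusted p = 0.0476). Lower were Slc1a3 at -0.42 (SE 0.08, adjusted p = 0.000335), Aqp4 at -0.62 (SE 0.17, adjusted p = 0.0109) and Kcnj10 at -0.52 (SE 0.18, adjusted p = 0.0345), opposite to Glul. Of all genes, 15.9% were called higher and 10.8% lower there. Between VAD WT and VAS WT 5 of the 12 were lower, beside 5.5% of all genes, and Clu, a secreted chaperone, was at -1.02 (SE 0.12, adjusted p = 1.02e-05). In the libraries labelled VAD Stra6-/-, 4 were called against VAS Stra6-/-, all higher, beside 53.2% of all genes called in either direction. Against VAD WT 8 were higher and 1 lower, with a median of 0.68, beside 26.2% and 29.6% of all genes. The lower gene was Aqp4, at -0.70 (SE 0.17, adjusted p = 0.00177). Clu was at 2.80 (SE 0.12, adjusted p = 6.69e-14) and S100b, a calcium-binding protein of astrocytes and Schwann cells, at 1.02 (SE 0.09, adjusted p = 3.61e-09) against VAD WT. The summed level of the list was 182517 to 199397 in the libraries labelled VAD Stra6-/-, 90468 to 93164 in VAS Stra6-/-, 74105 to 79361 in VAS WT and 50631 to 79195 in VAD WT. Clu alone had a mean of 115515 in the libraries labelled VAD Stra6-/- and of 33218.5 in VAS Stra6-/-. This 1 gene carries most of the difference between these sums, which therefore does not describe the list as a whole. Clu is also made by the RPE, and the RPE sum given above was higher in the same libraries; its part in the rise of this list was not tested. Of 13 rod genes, 3 were lower in VAS Stra6-/- against VAS WT, beside 10.8% of all genes. In the libraries labelled VAD Stra6-/- 7 were lower and 1 higher against VAS Stra6-/-, beside 53.2% of all genes called and 28.8% called lower. All 9 cone genes were lower in VAS Stra6-/- than in VAS WT, with a median of -1.97.

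Lists of other cells that the eyecup can hold moved as well, and their part in the values of the 9 genes was not tested. Their counts stand beside 26.6% of all genes called in VAS Stra6-/- against VAS WT. For the libraries labelled VAD Stra6-/- the shares were 53.2% against VAS Stra6-/- and 55.9% against VAD WT. Of the 8 myelin and Schwann cell genes, 6 were lower and 1 higher in VAS Stra6-/- against VAS WT, and in the libraries labelled VAD Stra6-/- 5 were higher and 1 lower against VAS Stra6-/-, and 2 higher and 6 lower against VAD WT. The summed level of 6 genes of peripheral neurons, which can share Isl1 and Calb2 with the retina, was 363 to 548 in VAS WT, 404 to 510.1 in VAS Stra6-/-, 269 to 642 in VAD WT and 159.8 to 259 in the libraries labelled VAD Stra6-/-, and 1 of the 6 was at 0 in all 5 libraries of VAS Stra6-/-. The sum of 6 skeletal muscle genes was 9603 to 11737, 23929 to 27185, 3073 to 10797 and 13990.3 to 17187 in the same order of groups, and all 6 were called higher in VAS Stra6-/- than in VAS WT. The sum of 5 endothelial genes was 5633 to 6178, 5719 to 6343, 3483 to 11266 and 8770.5 to 9492, and 3 of the 5 were called higher in the libraries labelled VAD Stra6-/- against VAS Stra6-/- and 3 against VAD WT. Of 5 macrophage and microglia genes, all 5 were called higher in the libraries labelled VAD Stra6-/- against each of these groups, and their sum was 5054 to 5225, 4666 to 5052, 3625 to 4152 and 13086 to 13889.5. Of 6 genes of sclera and stroma, 6 were called higher against VAS Stra6-/- and 5 against VAD WT, and the sum was 38328 to 40662, 38351 to 39807, 44336 to 152779 and 199198 to 210498. Of 6 lens genes, 4 were called in VAS Stra6-/- against VAS WT, all lower, and the sum was 4208 to 5007, 763 to 926, 741 to 3149 and 1315 to 1848. The keratin genes, whose sums are given above, were all 6 called lower in the libraries labelled VAD Stra6-/- against both groups.

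**Figure D4:**
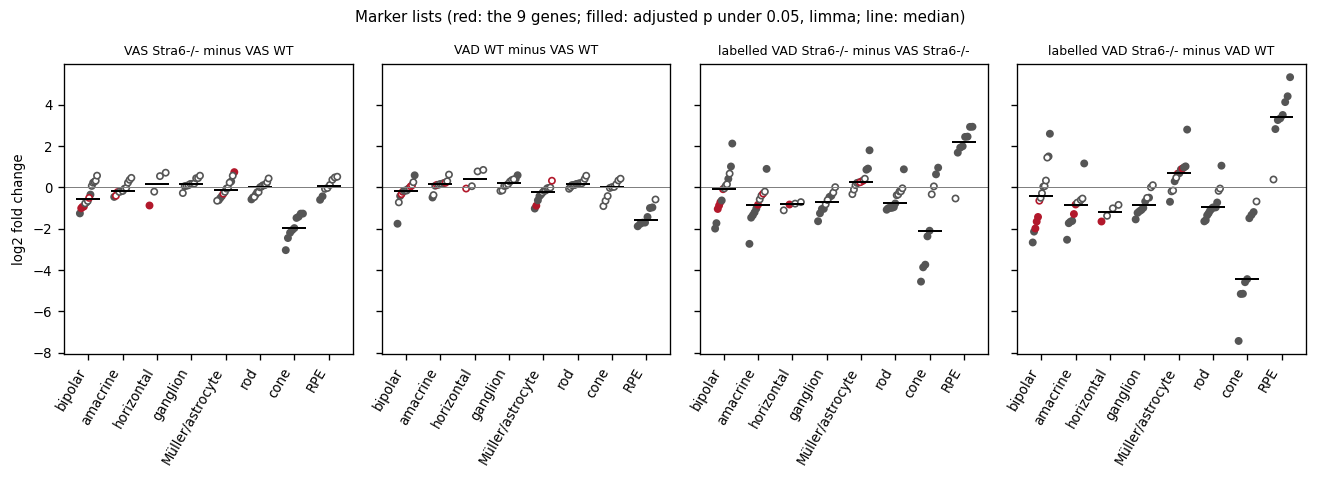
Log2 fold change (vertical axis) of every gene of 8 marker lists in each comparison of 2 groups, with the 9 genes in red, genes with an adjusted p under 0.05 filled, and the median of each list as a line. In the leftmost panel the bipolar median is -0.58 and the cone median -1.97, and in the panels for the libraries labelled VAD Stra6-/- the RPE median is above 0.

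Between libraries of the same group, some of the 9 genes varied with rods. Over the deviations of log2(value + 1) from the group means in 20 libraries, Pearson's r with the mean of the 13 rod genes was 0.97 for Glul, 0.94 for Cabp5, 0.94 for Gad1 and -0.96 for Gfap. These points share the library and the size factor. Over the 18 libraries without VAD WT replicates 2 and 4, the values were 0.43 for Glul, 0.54 for Cabp5, 0.68 for Gad1 and -0.37 for Gfap, while Pcp2 had the highest of the 9, 0.83. For Calb2 r was 0.24 over 20 libraries and 0.015 over 18. Grm6 had r of 0.55 and 0.31 with the rod mean, and with Pcp2, the other ON bipolar gene, 0.42 and 0.18.

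**Figure D5:**
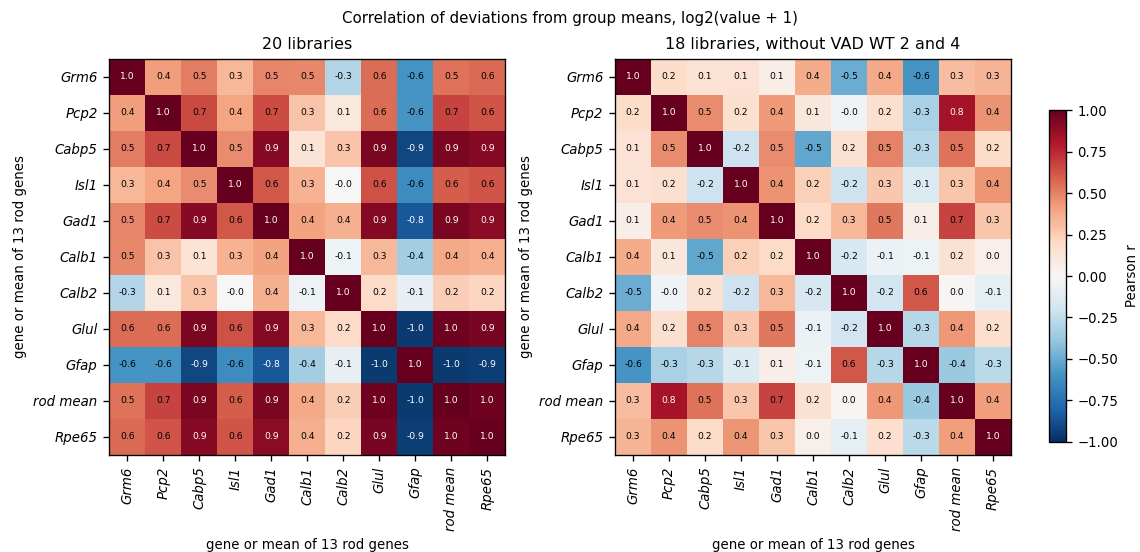
Pearson correlation (colour and printed value) between the deviations of log2(value + 1) from the group means for the 9 genes, the mean of 13 rod genes and Rpe65, over all 20 libraries at the left and over 18 libraries, without VAD WT replicates 2 and 4, at the right. Cabp5, Gad1, Glul and the rod mean are strongly coloured together at the left, where r of Glul with the rod mean is 0.97, and more faintly at the right, where it is 0.43.

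For each of the 9 genes the most similar genes were sought among those with a mean value of at least 10, by the same correlation of deviations over 20 libraries. The closest was Gpnmb for Glul (r = 0.98), Lrig1 for Gfap (0.98), Lamb2 for Cabp5 (0.96) and Impg1 for Gad1 (0.95). Without VAD WT replicates 2 and 4 these were 0.82, 0.74, 0.73 and 0.72. For the other 5 genes the closest changed less between the 2 sets of libraries. Ttll4 had r of 0.90 and 0.85 with Pcp2, Fam53b 0.89 and 0.87 with Grm6, Tm4sf1 0.85 and 0.80 with Isl1, Sftpd 0.85 and 0.85 with Calb2, and Fam43b 0.83 and 0.80 with Calb1. None of the 9 was among the 3 closest genes of another.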

How the data were processed

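RNA-seq of 20 samples of RPE and choroid was used, 5 in each of 4 groups taken from the genotype and diet labels. Per the labels, reads were aligned by the authors to GRCm38/mm10 (STAR 2.5.3a) and gene counts were estimated with RSEM 1.2.30. The deposited values are a signal, the count divided by 1 DESeq2 1.32.0 size factor per library, which the values themselves show: whole reads were recovered within a tolerance of 1e-06 in 19 libraries, but not claimed for replicate 1 labelled VAD Stra6-/-, whose step is too near to 1. Depth was 13331903 to 21878614 reads, and intervals for counting error were not needed at the values reported.

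Genes with a total of at least 5 reads were kept (18807), and log2(value + 1) was fitted with limma 3.58.1 (trend, R 4.3.3) with a mean for each group and Benjamini-Hochberg adjustment, called at an adjusted p under 0.05. The added 1 understates fold changes of low genes. In a further fit the mean log2(value + 1) of 13 rod genes was subtracted from each library. Alternatives covered the pseudocount, the filter, TMM rescaling, edgeR 4.0.16 and DESeq2 1.42.0 on recovered reads of 19 libraries, which libraries entered the fit, a block for the replicate number, a fold threshold and the reference list. Labels do not say whether samples were separate litters or cages, so p-values measure the spread between these samples. Replicates with the same number did not deviate together (r from -0.134 to 0.0948 over 4 pairs of groups), so numbers were not used as pairs.

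The 9 genes, the marker lists and the tests were chosen with earlier results of these data known. Named are all 9 genes, Stra6, Rpe65, Xist and Ddx3y as checks, at most 2 further genes per list and comparison with the largest change at a mean value of at least 10, and the closest genes by correlation. Lhx1, Onecut1, Onecut2, Trpm1, Dkk3, Slc1a3 and Kcnj10, and Aqp4 against VAD WT, were named after their values were seen. Gene positions and exon lengths follow GENCODE on GRCm38, promoters RefSeq on GRCm38.p6, where Calb1 and Calb2 were not matched. Single values of some listed genes, and 1 further reference in place of the rod list, are not reported here.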

Additional observations from a re-analysis of the deposited data

Results flagged for a closer look

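In 36 checks, 1 for each gene and group of 5, 2 libraries lay further from the other 4 than Dixon's 95% value allows, where chance gives about 1 in 20. Cabp5 was at 190.5 in replicate 4 of the libraries labelled VAD Stra6-/-, against 109.8, 111, 111 and 109.9 in the other 4. Calb2 was at 1747 in replicate 3 of VAD WT, against 2128, 2107, 2094 and 2043 in the other 4.

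The diet difference in Stra6-/- minus that in WT passed the limma interaction test for 4 of the 9 genes, beside 44.2% of all genes, so that the count is at the share of all genes. It was -0.72 for Grm6, -0.98 for Pcp2 and -1.06 for Calb2 on the log2 scale (adjusted p = 0.00166, 0.00124 and 3.09e-08). For Gfap it was 1.22 (adjusted p = 0.00438), and 0.65 without VAD WT replicates 2 and 4. In each case it rests on the libraries labelled VAD Stra6-/-, in which Stra6 was at 1973 to 2393 and Rpe65 at 42395 to 45414. Their label was not tested.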

How the results depend on the processing

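The number of the 9 genes called kept within 1.5 times of the reported one under both other pseudocounts, both other filters, TMM rescaling, edgeR and the replicate block. In the block fit the numbers called were 6, 1, 5 and 8 in the 4 comparisons and 5 for the interaction, where it added Calb1 (adjusted p = 0.0440). Of VAD WT against VAS WT, 1 as reported, there were 3 with DESeq2, 0 with only the groups compared and 4 without VAD WT replicates 2 and 4. For the libraries labelled VAD Stra6-/- against VAS Stra6-/-, 5 as reported, it was 8 both with only the groups compared and without those replicates. With a log2 fold change beyond 2 required it was 0 in all 5. For the interaction, only the groups compared is the fit as reported. Leaving out in turn each library of the groups compared, and of no other group, gave 5 to 6, 0 to 2, 5 to 5, 8 to 9 and, for the interaction, 4 to 5.

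Relative to rod genes, leaving out each library of the 2 groups gave 4 to 4 (VAS Stra6-/- against VAS WT), 0 to 1 (VAD WT against VAS WT), 1 to 3 (labelled VAD Stra6-/- against VAS Stra6-/-) and 6 to 7 (against VAD WT). With the cone list, which moves all genes alike, it was 9 between the genotypes on VAS and 9 between the diets in Stra6-/-, beside 93.2% and 77.2% of all genes called higher, and without VAD WT replicates 2 and 4 it was 2 between the diets in WT and 7 between them in Stra6-/-. With the cone list the sign turned for 22 values, which became, in VAS Stra6-/- against VAS WT Grm6 0.97, Pcp2 0.90, Cabp5 1.40, Isl1 0.98, Gad1 1.50, Calb1 1.03, Calb2 1.68 and Gfap 1.60, in VAD WT against VAS WT Pcp2 0.22, Cabp5 0.17, Gad1 0.24 and Calb1 0.0615, in the libraries labelled VAD Stra6-/- against VAS Stra6-/- Grm6 0.66, Pcp2 0.83, Isl1 0.99, Calb1 0.89 and Calb2 0.86 and in these against VAD WT Grm6 1.84, Pcp2 1.50, Isl1 2.06, Calb1 1.86 and Calb2 2.20. Without VAD WT replicates 2 and 4 the plain differences turned in VAD WT against VAS WT Pcp2 -0.11, Cabp5 -0.65 and Gad1 -0.49, in these against VAD WT Cabp5 0.0594 and for the interaction Cabp5 0.57, Gad1 0.19 and Glul 0.21, and those relative to rods in VAD WT against VAS WT Pcp2 0.15 and Calb1 0.000684. Leaving out 1 library turned the sign of small values that were not called, which then ranged, in VAD WT against VAS WT, from -0.00678 to 0.19 for Pcp2, -0.22 to 0.25 for Cabp5, -0.13 to 0.29 for Gad1 and -0.15 to 0.0817 for Calb1, and for the interaction from -0.34 to 0.14 for Cabp5 and -0.16 to 0.0467 for Glul. Relative to rods the ranges were -0.20 to 0.0138 for Pcp2 and -0.10 to 0.19 for Calb2 in VAD WT against VAS WT, and -0.0579 to 0.0945 for Gad1 between the genotypes on VAD. The cause of these changes was not tested.

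Over all genes, 5010 were called in VAS Stra6-/- against VAS WT, 8208 with only the groups compared and 7524 without VAD WT replicates 2 and 4. For VAD WT against VAS WT they numbered 1652, against 639 and 7124, and 2651 without VAD WT replicate 4 alone.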

Other observations

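Glul and Xist varied together within VAD WT and between the WT and VAS Stra6-/- groups, a pattern noticed after the values were seen. In VAS WT Xist was at 7.69 to 38.4 and Glul at 21320.2 to 23252, and in replicates 1, 3 and 5 of VAD WT they were at 174 to 234 and 22138 to 23666. In VAS Stra6-/- Xist was at 15320.2 to 18052 and Glul at 36139 to 37492, and in VAD WT replicates 2 and 4 they were at 10912 and 11767 and 36057 to 38735. The libraries labelled VAD Stra6-/- had Xist at 3569.8 to 4279.6 together with Ddx3y, a gene of the Y chromosome, at 741 to 969.7, and the highest Glul, 41272 to 47352. Grm6 was at 414 to 464 in VAS Stra6-/- and at 729 to 795 in VAD WT replicates 2 and 4. The part of sex, of RPE or of other tissue in these levels was not tested.

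The bipolar list held genes that went in opposite directions in the libraries labelled VAD Stra6-/-. Trpm1, the channel at the end of the mGluR6 cascade and also a gene of pigment cells, was at a mean of 8635 there, against 4281 in VAS Stra6-/-, 4075 in VAS WT and 3099.7 in VAD WT. It was named after its values were seen, and its log2 fold change against VAS Stra6-/- was 1.01 (SE 0.09, adjusted p = 5.37e-09) in limma, while Grm6, the receptor of the same cascade, was at -1.04 (SE 0.12, adjusted p = 2.07e-07). The 2 genes share the ON bipolar cell but Trpm1 rose together with the RPE genes, whose part was not tested.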
